A study of Arabidopsis thaliana and Cucumis sativus and Glycine max with 60 samples.

Results

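The roots of Selaginella moellendorffii were compared between the meristem at the tip and the tissue behind it, across 22284 Selaginella genes of the 334159 gene rows in the table that holds this species. Selaginella is a lycophyte, a vascular plant outside the ferns and seed plants, and its roots are generally held to have evolved separately from theirs. Its root grows from an apical cell under a root cap, forks at the tip, and bears root hairs and a vascular strand behind the dividing region. In roots of this kind cells divide in the meristem, then lengthen, then take on their final form, and a zone further from the tip holds older cells.

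Members were all rows whose locus names start with selmo. The 6 libraries came from Selaginella of the cultivar Plant Delights, 21 days after plating and grown from bulbils, the small shoots by which the plant is propagated, in constant light on agarose medium. Of these, 3 libraries were of the root meristematic zone (MZ) and 3 were of a joint elongation and differentiation zone (EDZ), which was not divided further in this species. The series holds 60 libraries in all, and in the other 6 species the region behind the meristem was cut into one zone of elongation (EZ) and one of differentiation (DZ). No treatment, transgene or mutation is named in the labels. The labels do not say how many plants went into a library, and the design text calls the 3 libraries of a zone biological replicates. The purpose of the series, per its title, was to compare the program of root development among diverse plants.

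The Selaginella genes are given by locus numbers alone. Neither the tables nor the annotation used here pairs these numbers with gene names or functions, so no function is given to any of them, and the zone labels were not checked against marker genes of dividing, lengthening, root cap or green tissue. Only the loci with the largest changes are named, and the rest are described by counts and levels.

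All levels are RPKM, read numbers divided by gene length and by the mapped reads of the library. Every Selaginella value above 0 with 6 or more digits, 79013 of 79013, was exactly 2 times a number of at most 6 significant digits, against 60.5% to 61.5% of such values in the other species. The Selaginella values thus look doubled as deposited, and the sources used here give no reason. A doubling leaves plain ratios of RPKM as they are, but it moves fold changes and calls made on log2(RPKM + 1) with a limit of 1 RPKM, and Selaginella levels cannot be set beside those of other species. The smallest values gave the depth of each library relative to MZ replicate 1, since low values stand at whole multiples of what 1 read is worth. This relative depth was 0.693 in MZ replicate 2, 1.06 in MZ replicate 3, 0.795 in EDZ replicate 1, 0.598 in EDZ replicate 2 and 0.78 in EDZ replicate 3. The deepest libraries were thus 2 of the MZ. A level of 1 RPKM stood for 8.26 to 14.6 reads in a low gene of median step.

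Both zones expressed most of the gene set. Of the 22284 genes, 17356 were above 0 in at least 1 library, 13318 were above 0 in all 6, and 4928 were listed at 0 throughout. The libraries sorted by zone. Across the 12650 genes tested, log2 values correlated at 0.944 to 0.976 between MZ libraries, at 0.958 to 0.959 between EDZ libraries and at 0.684 to 0.795 between zones, where genes are not independent replicates. The first principal component carried 80.6% of the variance among the 6 libraries and the second 7.75%. Replicates were about equally close in both zones, with a median SD over genes of 0.22 log2 units in the MZ and 0.23 in the EDZ.

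Behind the meristem 1478 genes were higher and 2009 were lower than in the meristem, which is 11.7% and 15.9% of the 12650 genes tested and 27.6% in both directions together. These calls needed a limma adjusted p under 0.05 together with a change of at least 2-fold on the log2(RPKM + 1) scale. A further 2873 genes passed the adjusted p in limma with a change under 2-fold. For 5509 genes, 43.5% of those tested, the 95% interval of the change in RPKM + 1 lay wholly within 2-fold in either direction. For these genes a larger difference on that scale was not seen at this precision. Adding 1 RPKM understates the change of low genes, so low genes among them may differ by 2-fold or more in plain RPKM. The median standard error of a log2 change was 0.21 with 3 libraries a zone. The median log2 change of all genes tested was -0.20, and quantile normalization, which gives all libraries the same distribution, moved it by 0.10 to -0.10. Under that scaling 1671 genes were higher and 1634 lower, so which direction held more genes depended on the scaling. In bulk tissue, fewer cells of a type and less RNA per cell cannot be told apart.

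The 3 EDZ values lay all above or all below the 3 MZ values in 60.3% of the genes tested. They lay above in 2870 genes (22.7%) and below in 4764 (37.7%). Among the 3487 called genes only 26 had overlapping groups. When each of the 6 libraries was left out in turn, between 3327 and 3615 genes were called from the other 5. The library left out was then read in those genes against the opposite zone, whose 3 libraries had taken part in the calls, so its values describe its place among its replicates and are no independent check. The median change read in the library left out was 1.39 to 1.66 log2 units, against 1.51 to 1.55 in the remaining libraries of the same zone. MZ replicate 2 and EDZ replicate 2 stood farthest from the opposite zone, at 1.66 and 1.62, and MZ replicate 1 and EDZ replicate 3 nearest, at 1.39 and 1.42. The 2 libraries that stood farthest were also the 2 of lowest depth, whose part in this was not tested.

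**Figure D1:**
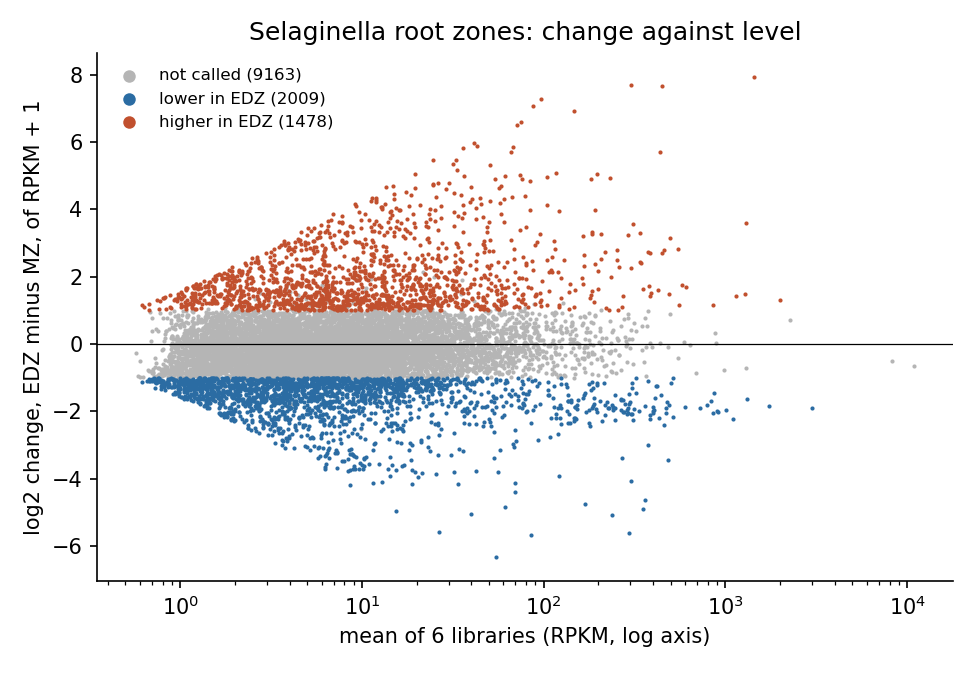
Each point is 1 of 12650 Selaginella genes, with its mean RPKM over the 6 libraries on a log x axis and its log2 change from MZ to EDZ on the y axis. The 1478 genes called higher reach 7.93 and the 2009 called lower reach -6.32, and the points fan out from the left because adding 1 RPKM limits the change that a low gene can show.

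On the deposited scale falls outnumbered rises, by 2009 to 1478, an order that quantile normalization turned, and rises were more often large. Among changes of 2 to 4 fold there were 954 genes higher and 1608 lower. Between 4 and 8 fold the numbers were close, at 314 and 299. Beyond that the order turned, with 133 higher and 83 lower between 8 and 16 fold, 69 and 18 between 16 and 64 fold, and 8 and 1 at 64 fold or more. In all 210 genes, 1.66% of those tested, were at least 8-fold higher and 102 genes, 0.806%, were at least 8-fold lower. These are 14.2% of the genes called higher and 5.08% of those called lower. The size of this difference depended on the pseudocount. With 0.1 RPKM in place of 1, 449 genes were at least 8-fold higher and 395 at least 8-fold lower. With halved values, an alternative chosen after seeing the data, the numbers were 139 and 48.

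**Figure D2:**
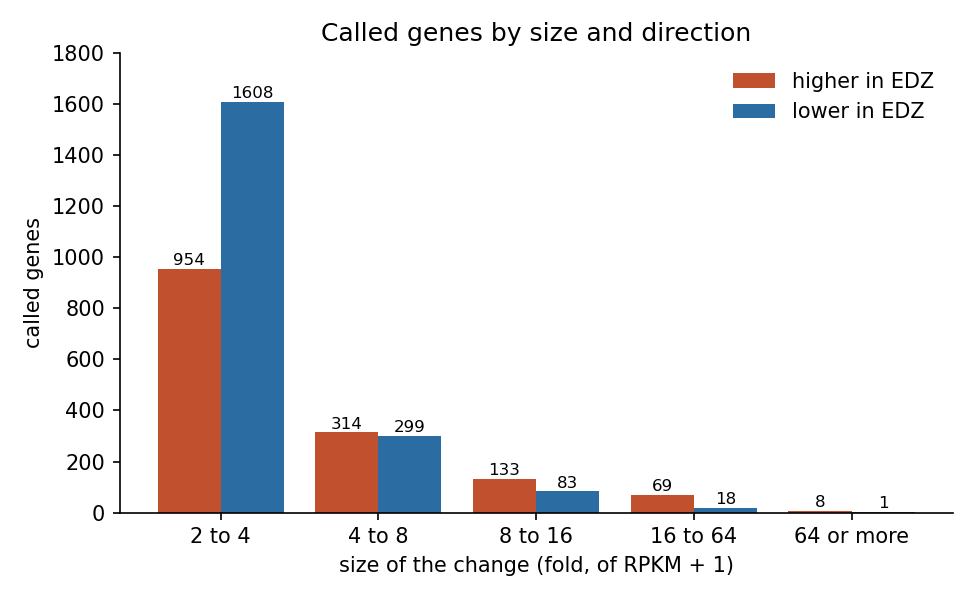
Bars give the number of called genes in each class of fold change of RPKM + 1 (x axis), higher in EDZ beside lower in EDZ. Falls outnumber rises among changes of 2 to 4 fold, 1608 against 954, and rises outnumber falls from 8 fold upward.

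On the deposited scale falls exceeded rises most among genes of low level, and the split by level was not repeated with quantile normalization. The tested genes were split into 4 groups of about equal size by their mean log2 level over the 6 libraries. In the lowest group, with a median of 1.78 RPKM, 22.1% were lower and 11% higher in the EDZ. In the next, at a median of 4.47 RPKM, 15.7% were lower and 10.3% higher. In the third, at 9.53 RPKM, the shares were 12.1% and 10.9%. In the highest group, at 29.1 RPKM, 13.6% were lower and 14.5% higher. The share of falls thus ranged more widely over the levels than the share of rises did. The 3 EDZ libraries had relative depths of 0.598 to 0.795 and the MZ libraries of 0.693 to 1.06. A gene could also pass the filter through the 3 libraries of 1 zone alone, and more genes reached 1 RPKM in each MZ library than in each EDZ library. The parts of the depth difference and of the filter in the low-level falls were not tested.

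The 2 largest rises on the log2(RPKM + 1) scale were of selmo_404277 and selmo_117229, and their order depended on the setting. These loci have no name in the sources used here and were chosen among called genes whose zones do not overlap. The locus selmo_404277 stood at 7.87, 12.9 and 10 RPKM in the MZ libraries and at 1714, 3808 and 3020 RPKM in the EDZ libraries. All EDZ libraries were far above all MZ libraries, and EDZ replicate 1 was the lowest of them. By mean level this gene ranked 4471 of all Selaginella genes in the MZ and 4 in the EDZ. Its log2 change was 7.93 ± 0.31 (SE, limma adjusted p = 5.43e-06, higher in 3 of 3 EDZ libraries). The locus selmo_117229 stood at 2.73, 1.97 and 0.807 RPKM in the MZ and at 332, 885 and 602 RPKM in the EDZ. As with selmo_404277, EDZ replicate 1 was the lowest and EDZ replicate 2 the highest of the 3. Its log2 change was 7.69 ± 0.39 (SE, limma adjusted p = 1.25e-05). Its fold of zone means, 330, was above the 278 of selmo_404277, and its log2 change was also the larger at a pseudocount of 0.1 RPKM (8.33 against 8.06), with quantile normalization (7.92 against 7.91) and without MZ replicate 1 (7.92 against 7.77).

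The 2 largest falls on this scale were of selmo_103546 and selmo_413644. The locus selmo_103546 stood at 108, 113 and 106 RPKM in the MZ and at 0.341, 0.454 and 0.348 RPKM in the EDZ. The MZ libraries differed from each other by a small part of their level, and the EDZ values were low enough to rest on few reads. In the EDZ libraries 1 read is worth 0.0911 to 0.121 RPKM in a low gene of median step. That worth was not estimated for selmo_103546 itself, so the number of reads behind its EDZ values is not known. Its log2 change was -6.32 ± 0.14 (SE, limma adjusted p = 1.77e-07). Adding 1 RPKM holds this value down, and at a pseudocount of 0.1 RPKM it was -7.83. The fold of zone means of selmo_103546, MZ over EDZ, was 286.5, which lies between the folds of the 2 largest rises. The locus selmo_413644 stood at 174, 134 and 189 RPKM in the MZ and at 1.27, 0 and 13.6 RPKM in the EDZ. The groups did not overlap, which the choice of loci required. The EDZ libraries were spread widely, with EDZ replicate 2 listed at 0 and EDZ replicate 3 the highest. Its log2 change was -5.68 ± 0.86 (SE, limma adjusted p = 0.00148). This value rested on single libraries: it was -4.84 without EDZ replicate 2 and -6.77 without EDZ replicate 3, where it passed the -6.30 of selmo_103546.

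These loci led wider sets of steep changes. The 10 largest rises, among called genes that did not overlap and reached a mean of 10 RPKM in the higher zone, had log2 changes of 5.88 to 7.93. Their mean levels were 0.188 to 10.3 RPKM in the MZ and 82.5 to 2847 RPKM in the EDZ. The 10 largest falls by the same rule had log2 changes of -6.32 to -4.75, from means of 30.7 to 683 RPKM in the MZ to means of 0 to 24.4 RPKM in the EDZ. The highest level reached among the rises, 2847 RPKM, was thus above the highest level from which a fall began, 683 RPKM, though the ranges overlap.

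**Figure D3:**
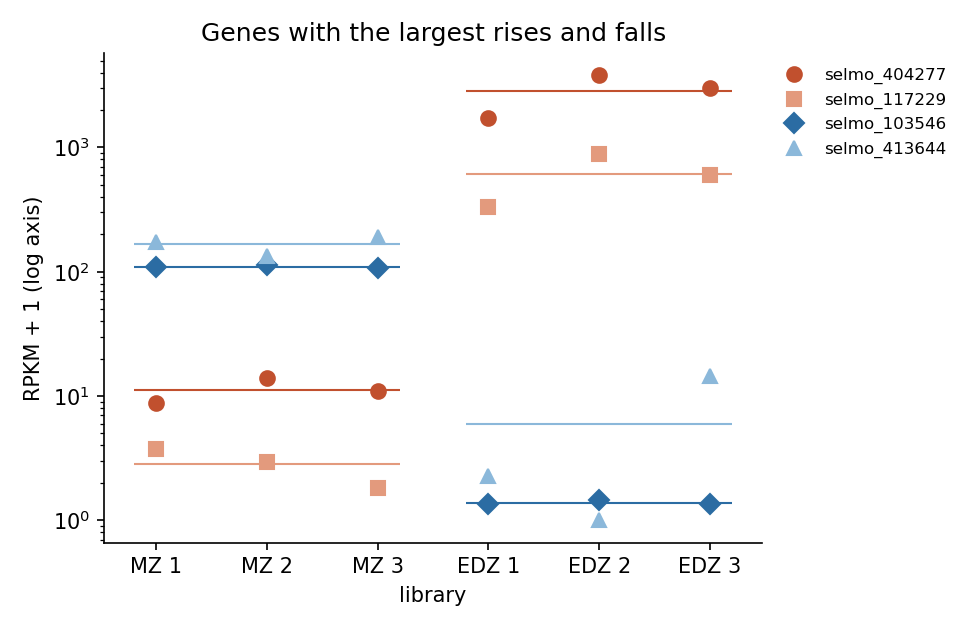
RPKM + 1 on a log axis for the 2 loci with the largest rises (orange) and the 2 with the largest falls (blue) in each of the 6 libraries, with lines at the zone means. The zones do not overlap for any of them, which the choice of loci required, and selmo_413644 ranges from 0 to 13.6 RPKM among the EDZ libraries.

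Few genes with a mean of at least 1 RPKM in 1 zone were listed at 0 throughout the other. There were 79 genes listed at 0 in all 3 MZ libraries with a mean of at least 1 RPKM in the EDZ, and 84 genes of the opposite kind. Only 5 genes of each kind reached a mean of 10 RPKM. The highest means among them were 39.1 RPKM in the EDZ and 30.7 RPKM in the MZ. A gene listed at 0 can still be expressed below what these depths show. Genes seen in 1 zone alone at a mean below 1 RPKM were not counted. The count was over all 22284 genes and the calls over the 12650 tested. Set beside the 3487 called genes, the loci counted here were a small group.

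The most abundant genes changed places. The gene with the highest mean was the same in both zones, at 13300 ± 1482 RPKM in the MZ and 8419 ± 834 RPKM in the EDZ (SD, n = 3). It passed the limma adjusted p of 0.05 (adjusted p = 0.03) with a log2 change of -0.66 ± 0.21, under the 2-fold limit, and was not called. Of the 100 highest genes of each zone, 36 were in both sets. The 64 that were only in the MZ set made up 11.7% of the summed RPKM of the MZ and 3.32% of that of the EDZ. The 64 that were only in the EDZ set made up 3.17% of the MZ sum and 13.1% of the EDZ sum. These sets were chosen by the levels compared, so the shares describe them and are not tests. Of the 36 shared genes, 5 were called higher, 14 lower and 17 not called. Over all genes tested, 11.7% were called higher and 15.9% lower.

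The 100 highest genes held a larger part of the total in each MZ library than in each EDZ library, which was not so for the 10 or the 1000 highest. The 100 highest genes of each library held 32%, 34.6% and 31.4% of the summed RPKM in the MZ libraries and 28.7%, 29.7% and 28.9% in the EDZ libraries. The groups did not overlap. The means were 32.6% ± 1.7 and 29.1% ± 0.53 (SD, n = 3), a difference of -3.55 percentage points (two-sided exact permutation test, p = 0.1, adjusted 0.18 over 9 library measures). With 3 libraries against 3 the smallest p this test allows is 0.1. The 10 highest genes held 12.8% to 16.3% in the MZ and 10.8% to 13.2% in the EDZ, and the 1000 highest 63% to 65.5% and 61.8% to 63%, with overlapping groups (exact permutation p = 0.2 each, adjusted 0.257). The effective number of genes, 2 raised to the Shannon entropy of the shares in bits, was 2350, 2017 and 2454 in the MZ and 2667, 2553 and 2645 in the EDZ. Here too the groups did not overlap, with higher values in the EDZ (exact permutation p = 0.1, adjusted 0.18). At the same time fewer genes reached 1 RPKM in the EDZ, 11577, 11568 and 11618 against 12450, 12075 and 12489 in the MZ (exact permutation p = 0.1, adjusted 0.18). The EDZ libraries thus had more even shares with fewer genes at 1 RPKM, differences whose p could not go below 0.1 in this design. Summed RPKM was also lower in the EDZ libraries, at 266611 to 275205 against 286861 to 299135 in the MZ (exact permutation p = 0.1, adjusted 0.18). The part of this sum, and of depth, in the number of genes at 1 RPKM was not tested. The number of genes above 0 overlapped between zones, at 15037 to 15857 in the MZ and 14966 to 15328 in the EDZ (exact permutation p = 0.3, adjusted 0.338).

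**Figure D4:**
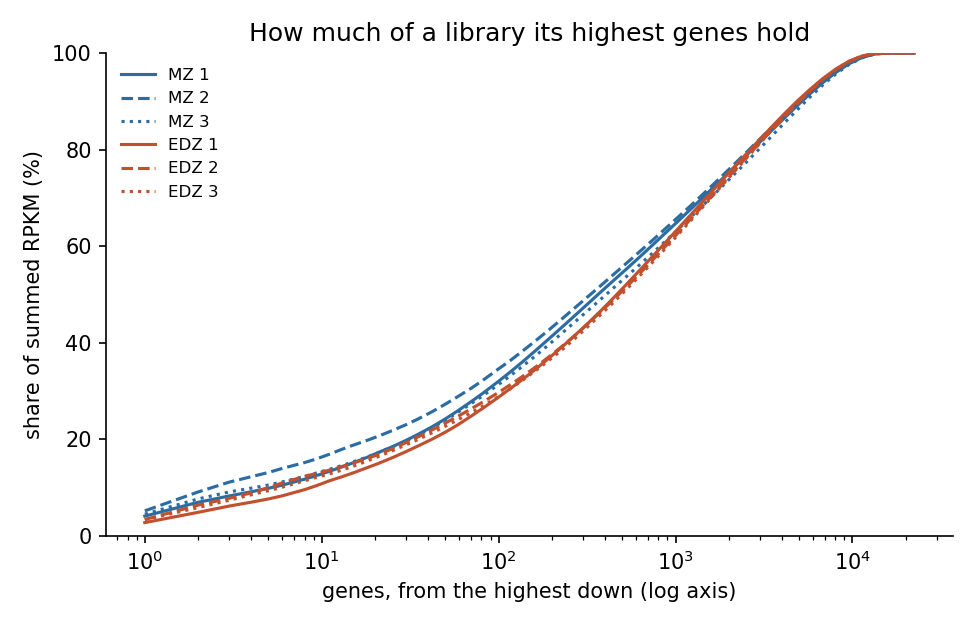
Share of a library's summed RPKM (y axis, %) held by its highest genes, counted from the highest down on a log x axis, for 3 MZ libraries (blue) and 3 EDZ libraries (orange). At 100 genes the MZ curves stand at 31.4% to 34.6% and the EDZ curves at 28.7% to 29.7%, and the curves meet toward the right.

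The other species, fitted by the same rules over their 9 libraries each, give the setting for these numbers. The share of tested genes that were called was 27.6% in the Selaginella EDZ. For the EZ against the MZ it was 38.7% in Arabidopsis, 26.5% in cucumber, 24.5% in maize, 12.7% in rice, 16.3% in soybean and 42.5% in tomato. For the DZ against the MZ it was 62.1% in Arabidopsis, 47.7% in cucumber, 51.4% in maize, 44% in rice, 33.4% in soybean and 54.6% in tomato. Selaginella thus lay within the EZ range and below the DZ of every other species. Its plants were older, its tissue joins both zones, its fit has 6 libraries and not 9, and its values look doubled. Even so, its summed RPKM per library was lower, at 266611 to 299135 against 567230 to 1483281 in the other species. The filter and pseudocount of 1 RPKM are thus a larger part of its summed RPKM. The filter asked for 3 libraries in every species, of 6 in Selaginella and of 9 elsewhere. In the other species a gene could thus enter the EZ comparison through its DZ libraries alone. The difference between species was not tested. Halved values gave 1189 genes higher and 1380 lower of 11024 tested. Large changes were more frequent among rises than among falls in every species and zone, with a ratio of genes at least 8-fold higher to genes at least 8-fold lower of 2.06 in Selaginella and of 1.54 to 13.2 elsewhere. In the other species this ratio was computed with the pseudocount of 1 RPKM alone.

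The concentration of the MZ was compared by library. The 100 highest genes held 31.4% to 34.6% of the summed RPKM in the Selaginella MZ, 30.5% to 33.1% in rice, 31.1% to 37.1% in tomato and 29.3% to 30.6% in cucumber. Arabidopsis, with 23.5% to 27.1%, maize, with 17.4% to 19.7%, and soybean, with 16.1% to 19.1%, lay below it. The Selaginella mean exceeded those of Arabidopsis, maize, soybean and cucumber by 7.18, 14.2, 14.9 and 2.76 percentage points without overlap (exact permutation p = 0.1 each, adjusted 0.171 over 12 comparisons). Against rice and tomato the libraries overlapped, with differences of 1.03 and -1.38 points (exact permutation p = 0.5 and 0.7, adjusted 0.6 and 0.7). By the effective number of genes, with a mean of 2274 in the Selaginella MZ, Arabidopsis (3323), maize (5459) and soybean (6498) were again apart (exact permutation p = 0.1 each, adjusted 0.171). Cucumber, at 2447, overlapped Selaginella on that measure (exact permutation p = 0.4, adjusted 0.533), as did rice, at 2172 (0.6, adjusted 0.655), and tomato, at 1883 (exact permutation p = 0.2, adjusted 0.3). The tables list 21503 to 96559 genes for these species, so a set of 100 is not the same part of each. Selaginella plants were also older than those of every other species.

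**Figure D5:**
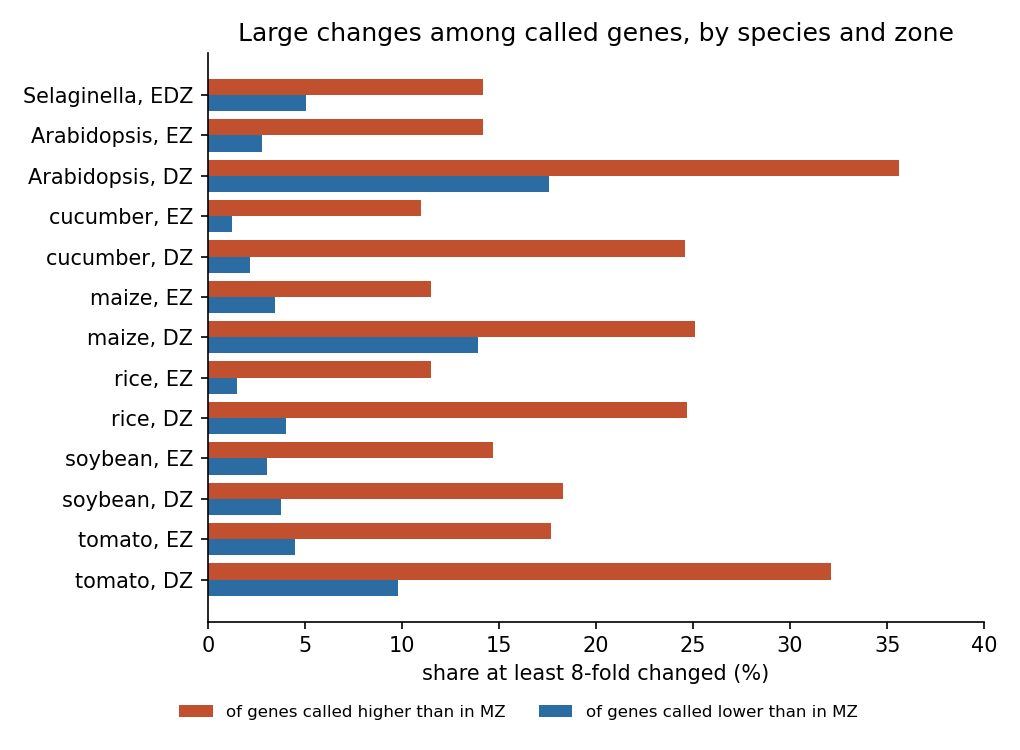
For each species and zone set against its MZ, bars give the share (%) of genes called higher and of genes called lower that changed at least 8-fold. Selaginella stands at 14.2% and 5.08%, beside the Arabidopsis EZ at 14.2% and 2.79% and the Arabidopsis DZ at 35.6% and 17.6%.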

How the data were processed

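The submitters' processing notes name FastQC and TopHat2, and the labels name Phytozome Sm91 as the annotation to which Selaginella reads were mapped. The sources used here do not give tool versions, gene lengths, the counting step or any filters. The authors deposited RPKM values in tables whose columns stack the species, and rows were given to a species by locus name. The EDZ columns of the other species (18 blocks of values) were matched to no sample and were not used.

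A gene entered the test when 3 or more libraries had 1 RPKM or more. The fit was made on log2(RPKM + 1) with limma 3.58.1 in R 4.3.3 (lmFit and eBayes with trend and robust estimation, two-sided, Benjamini-Hochberg over all genes tested). Fold changes of low genes are understated on this scale. The fit was first tested on simulated data. It recovered 35 of 50 genes set to a log2 change of -1.5 and 41 of 50 set to 1.5. At -3 and 3 it recovered 50 and 47 of 50, and it called 6 of 12450 genes set to no change. The changed genes were drawn from those with a mean log2(RPKM + 1) above 2, and the noise was normal and independent. Recovery was thus not measured in genes of lower level. Low values were read as whole reads where all agreed within 0.02 reads, which held for 68.2% of 5004 low genes. Among tested genes, 80 stood in 40 pairs with identical values in all 6 libraries, each pair in neighbouring rows, so their calls (2 pairs higher, 3 lower) count the same values again. The named loci are not among them.

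Named genes were the 2 largest rises and the 2 largest falls among called, non-overlapping genes with a mean of at least 10 RPKM in the higher zone. The planned gene lists were not applied and the planned comparison of gene families with Arabidopsis and rice was not made, since both need gene annotation or families. Members, tests and lists were chosen with earlier results of these data known. Reading of the tables, depth steps and plots were done in Python 3.11.15 with NumPy 2.4.6, pandas 2.3.3 and matplotlib 3.10.9.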

Additional observations from a re-analysis of the deposited data

How the results depend on the processing

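The counts of genes higher and lower stayed within 1.5 times in all 13 alternatives, and the 4 named loci kept their direction and call in all 13 (52 of 52 values). These loci were chosen for the largest changes in the same libraries, so their staying called is no independent check. Leaving out 1 library gave 1351 to 1544 genes higher, 1961 to 2095 lower, 188 to 233 at least 8-fold higher and 86 to 110 at least 8-fold lower. The counts of large changes moved with the pseudocount, to 449 higher and 395 lower at 0.1 RPKM, and with halved values, to 139 and 48. Both act on how much a change of a low gene is held down. The deviations of MZ and EDZ libraries of the same number from their zone means correlated at 0.269, 0.0539 and 0.0302. Libraries of unlike number were not set beside these, so whether the numbers pair the libraries was not settled. With the replicate block 1504 genes were higher and 2013 lower. The planned list counts and family comparisons gave no value.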
